A study of Mus musculus with 8 samples.

Results

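The class 3 semaphorins are the secreted semaphorins of vertebrates. They guide growing axons, migrating neural crest cells and blood vessels by binding neuropilin and plexin receptors on the target cell, most often as repellents, and their 7 mouse genes are Sema3a, Sema3b, Sema3c, Sema3d, Sema3e, Sema3f and Sema3g. These 7 of the 21887 protein-coding genes of the annotation are described here. The family was chosen by a peak result of the same data, since Sema3c was picked for having peaks of HMGA2, γ-H2AX and ATM around one end; the other 6 genes entered as members of its family, whatever their peaks. The peaks at the end of Sema3c are therefore a description, with no test.

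The peaks came from chromatin immunoprecipitation with sequencing (ChIP-seq) in Hmga2 wild-type mouse embryonic fibroblasts (MEF), primary cells of strain C57BL/6 taken at embryonic day 15.5 and used at passages 2 to 4. Single libraries were made with antibodies against HMGA2, against γ-H2AX (H2AXS139ph in the labels) and against ATM. Libraries of Hmga2 Ko cells and both inputs belong to the series and were not analysed here. With 1 library per antibody there was no replicate error, so no comparison between the antibodies or between genes carries a test, and peak lists give no expression from which the cell type could be checked.

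HMGA2 is a chromatin protein whose AT-hook domains bind the minor groove of short AT-rich stretches of DNA. ATM is a protein kinase that responds to broken DNA, and γ-H2AX is the histone variant H2AX carrying a phosphate on its C-terminal serine, a mark that ATM can place. In embryos, class 3 semaphorins made by mesenchymal cells steer nerves and vessels that pass through the tissue. The HMGA2 list held 152834 peaks, the γ-H2AX list 124947 and the ATM list 119570, or 5.74, 4.70 and 4.49 peaks per 100 kb. Each peak has the authors' score, which is higher the smaller its p; a score of 20 stands for a p of 0.01, the threshold for listing. The median HMGA2 peak had a score of 23.8 and the median γ-H2AX or ATM peak one of 23.6, close to that threshold.

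Sema3c, Sema3a, Sema3d and Sema3e are long genes that lie within a few megabases of each other on chromosome 5, whereas Sema3b and Sema3f (chromosome 9) and Sema3g (chromosome 14) are short. The RefSeq promoter table used here (GRCm38, the assembly of mm10) gave 300 bases around a start, 250 before it and 50 after, for 5 of the 7 genes; Sema3b and Sema3f had no entry. Peaks stood near the tabulated starts of Sema3c and Sema3a, and the windows of both are shown with that of Sema3e, which had no peak within 1 kb of its start. Capitals mark each CG, the dinucleotide that is dense in CpG island promoters, and each AATT, a short stretch of the kind that AT hooks bind. Both motifs read the same on either strand, and they cannot overlap.
Sema3c, chr5:17574566-17574865, plus strand: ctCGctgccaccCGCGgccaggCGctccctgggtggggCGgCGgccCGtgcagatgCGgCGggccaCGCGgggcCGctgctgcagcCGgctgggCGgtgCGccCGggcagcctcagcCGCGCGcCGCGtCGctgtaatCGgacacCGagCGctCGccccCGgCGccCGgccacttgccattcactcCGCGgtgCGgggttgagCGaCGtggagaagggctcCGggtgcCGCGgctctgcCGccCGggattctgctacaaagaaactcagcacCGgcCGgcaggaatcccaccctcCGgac
Sema3a, chr5:13396534-13396833, plus strand: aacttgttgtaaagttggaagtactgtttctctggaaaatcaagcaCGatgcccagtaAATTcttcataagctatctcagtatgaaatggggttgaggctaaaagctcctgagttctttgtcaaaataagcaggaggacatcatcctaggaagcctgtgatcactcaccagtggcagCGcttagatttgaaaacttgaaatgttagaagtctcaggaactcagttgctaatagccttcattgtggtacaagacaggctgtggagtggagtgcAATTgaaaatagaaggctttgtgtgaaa
Sema3e, chr5:14025026-14025325, plus strand: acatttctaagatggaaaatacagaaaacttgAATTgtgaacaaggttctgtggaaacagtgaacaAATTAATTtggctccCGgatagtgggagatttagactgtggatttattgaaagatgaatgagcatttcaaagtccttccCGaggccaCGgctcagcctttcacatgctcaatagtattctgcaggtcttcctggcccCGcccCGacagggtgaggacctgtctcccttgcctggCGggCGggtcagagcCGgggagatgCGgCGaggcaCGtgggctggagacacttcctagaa

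The promoter of Sema3c was rich in G and C, at 75.7%, above 96.7% of the 32851 promoters of the table, and it held 42 CG and no AATT. That of Sema3a was poor in them, at 41.3% GC, with 2 CG and 2 AATT, and only 12.8% of promoters were lower. This Sema3a window surrounds a start 271962 bp inside the annotated gene, and no sequence was available at the annotated low-coordinate end. Sema3e stood between the other two at 50.7% GC, with 11 CG and 3 AATT. The windows of Sema3d (49.7% GC, 8 CG, 4 AATT) and Sema3g (58.7% GC, 8 CG, no AATT) were also intermediate, beside a median of 52.7% GC and 7 CG over all promoters. At least 1 AATT was found in 50.4% of all promoters and at least 1 CG in 94.6%. None of the 5 windows was touched by a peak, whereas HMGA2, γ-H2AX and ATM peaks touched 1.46%, 3.53% and 1.81% of all such windows. With 5 windows and shares this low, a count of 0 does not set the genes apart.

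Sema3c encodes a semaphorin known for its part in the cardiac outflow tract, where neural crest cells respond to it. The gene spans chr5:17574816-17730268 and starts at its low-coordinate end. An ATM peak of 231 bp lay at chr5:17574008-17574238, 578 to 808 bp before the start, with a score of 43.3. A γ-H2AX peak of 106 bp lay wholly inside it at chr5:17574084-17574189, 627 to 732 bp before the start, with a score of 36.5. The HMGA2 peak was on the other side of the start, at chr5:17575582-17575748, 766 to 932 bp inside the gene, with a score of 26.5. It did not overlap the others and lay 1343 bp from the ATM peak and 1392 bp from the γ-H2AX peak. The γ-H2AX and ATM peaks were both in the authors' promoter lists of their antibody. All 3 peaks fell outside the 300 bases printed above. At the other end of Sema3c the nearest ATM peak was 4989 bp outside, the nearest γ-H2AX peak 6162 bp inside and the nearest HMGA2 peak 7726 bp outside, so that no peak stood within 1 kb of it.

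**Figure D1:**
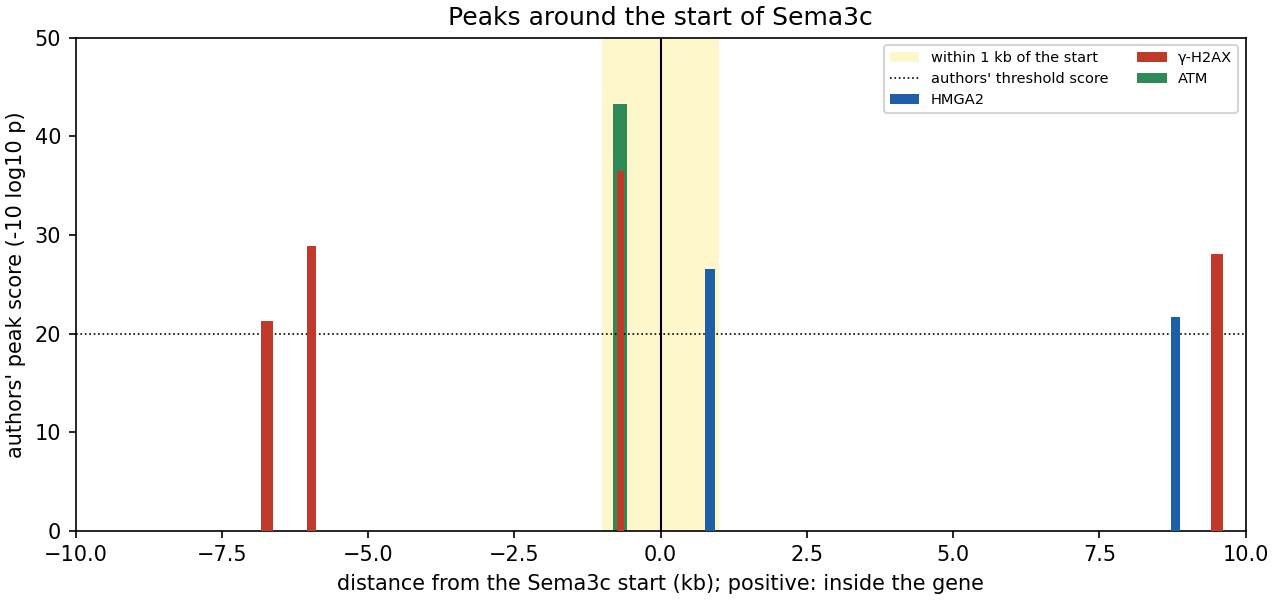
Authors' peak score of every peak within 10 kb of the Sema3c start, against distance from the start in kb, as bars in blue for HMGA2, red for γ-H2AX and green for ATM, with 1 kb on either side shaded. The γ-H2AX peak (score 36.5) lies inside the ATM peak (43.3) before the start, and the HMGA2 peak (26.5) stands apart from both inside the gene.

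Sema3a was the other member with a peak at an annotated end. It encodes the founding repellent of the class, known for collapsing sensory growth cones through neuropilin-1. An ATM peak at chr5:13124803-13124957 (score 22.4) covered its low-coordinate end, and a γ-H2AX peak at chr5:13603347-13603515 (score 20.9) covered its other end, 479 kb away. Both scores were close to the threshold. The start in the promoter table lies 271962 bp inside the annotated gene, and the nearest peak to it was an HMGA2 peak at chr5:13396383-13396497, 287 to 401 bp before it, with a score of 29.8. Among the 5 members with a tabulated start this was the shortest distance of an HMGA2 peak. The nearest γ-H2AX and ATM peaks to this start were 3167 bp after and 4399 bp before it.

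No other member had a peak within 1 kb of an annotated end. The nearest were a γ-H2AX peak 1096 bp outside the low-coordinate end of Sema3f (score 26.9), an ATM peak 2059 bp inside the high-coordinate end of Sema3e (26.5), a γ-H2AX peak 2107 bp before the start of Sema3g (20.5) and an ATM peak 2237 bp inside the high-coordinate end of Sema3b (20.4). Around Sema3d, a semaphorin known from venous and cardiac development, the nearest was an HMGA2 peak 3296 bp inside its high-coordinate end, with a score of 28.9. In all, 1 of 7 members had an HMGA2 peak within 1 kb of an end, against 17.9% of protein-coding genes. For γ-H2AX it was 2 of 7 against 23.3%, and for ATM 2 of 7 against 16.1%. Peaks of all 3 antibodies within 1 kb of an end were found at 1.12% of protein-coding genes, and at the same end in 0.439%. Since Sema3c was picked for such peaks, its part in these counts says nothing of the family, and without it the counts were 0, 1 and 1 of the other 6.

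Regions of the authors' γ-H2AX promoter list lay within 1 kb of an end of 1 of 7 members, against 9.03% of protein-coding genes. For the ATM list it was 1 of 7, against 3.44%. Both were Sema3c, and the regions are the γ-H2AX and ATM peaks for which it was picked. Its part in these counts therefore says nothing of the family, and no other member had such a region within 1 kb of an end. The γ-H2AX peak beside Sema3f is also in the promoter list, at chr9:107680270-107680403. It lay 636 bp from an end of the neighbouring gene Gnat1, which encodes a transducin subunit of rod cells, and 1096 bp from Sema3f, so its assignment to Sema3f is uncertain.

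The long members carried many HMGA2 peaks along their bodies. With 10 kb added on either side, Sema3a had 76 HMGA2 peaks, 50 γ-H2AX peaks and 36 ATM peaks in 499 kb. Sema3c had 31, 15 and 12 in the same order of antibodies in 175 kb. Sema3d had 27, 12 and 11 in 226 kb, and Sema3e, the semaphorin that binds plexin D1 without a neuropilin and patterns vessels, had 28, 16 and 10 in 251 kb. In each of these 4 genes HMGA2 had the most peaks and ATM the fewest, which is also the order of the whole lists. As a density this was 17.7 HMGA2 peaks per 100 kb in Sema3c, 15.2 in Sema3a, 11.96 in Sema3d and 11.1 in Sema3e, against 5.71 over chromosome 5. Gene bodies held 158 of the 162 HMGA2 peaks of these genes, 86 of the 93 γ-H2AX peaks and 66 of the 69 ATM peaks.

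**Figure D2:**
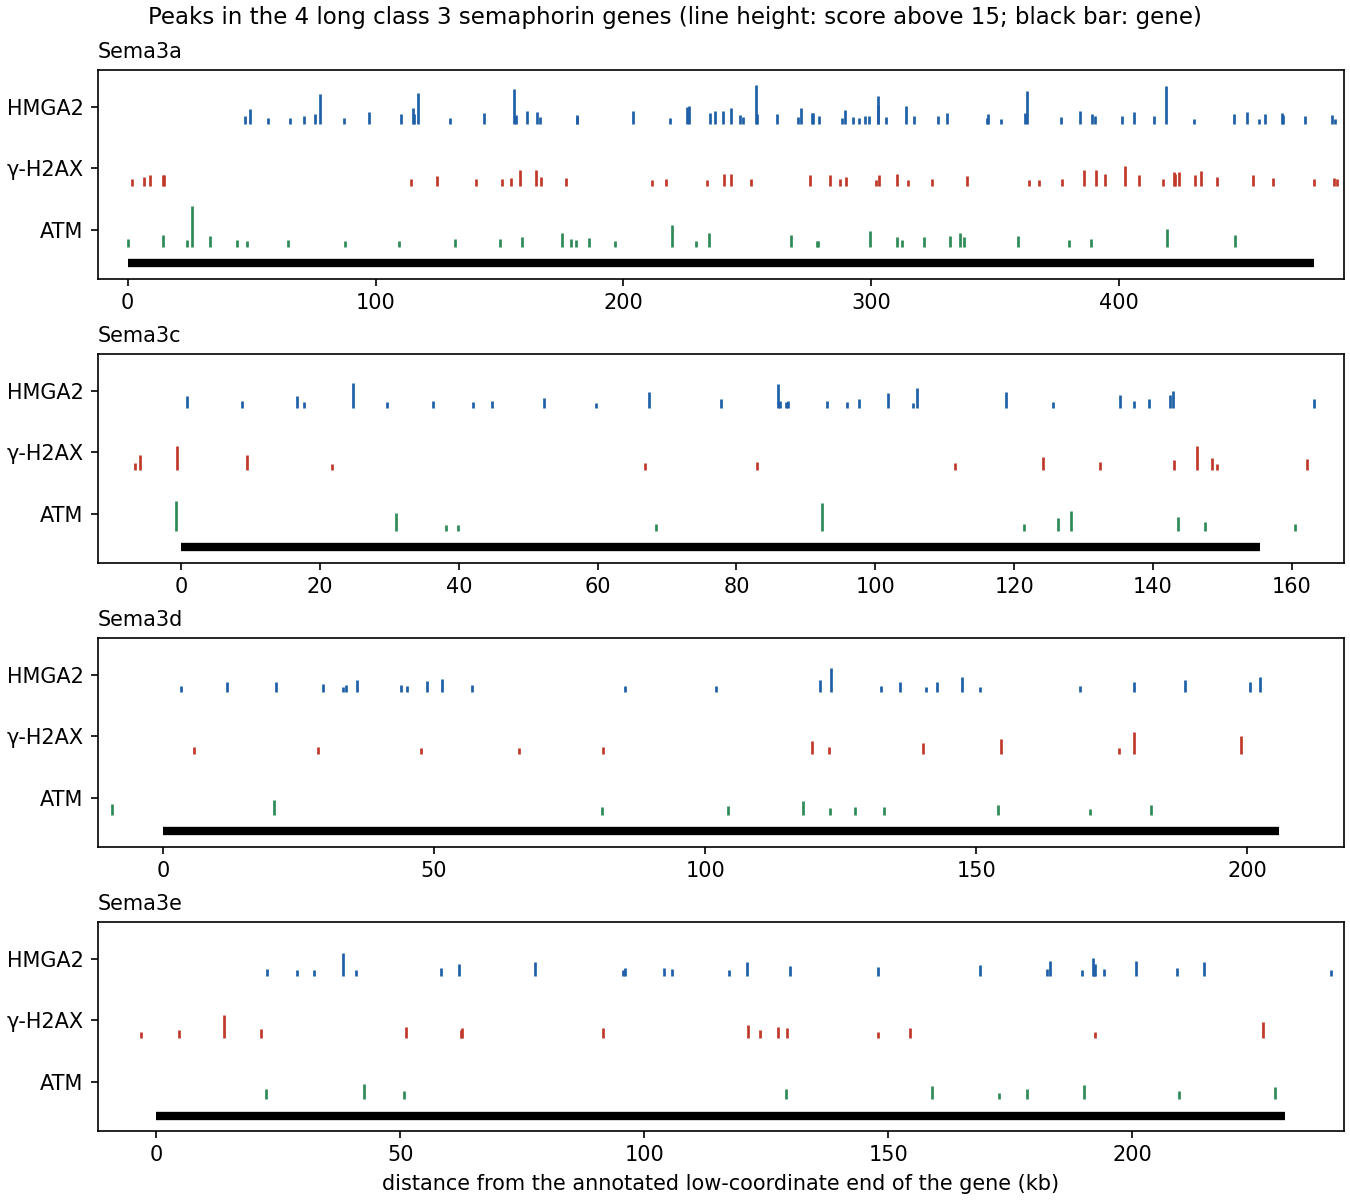
Positions of all peaks in Sema3a, Sema3c, Sema3d and Sema3e and their 10 kb flanks, by distance from the low-coordinate end of each gene in kb, in 1 row per antibody; line height grows with the authors' score and the black bar is the gene. HMGA2 rows are the fullest in each gene, and γ-H2AX has no peak in Sema3a between 14.6 and 114 kb.

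An expected number was taken as the mean over every circular rotation of a list within its chromosome, and the interval of a ratio is the exact 95% Poisson interval of the count, which covers counting error only and takes peaks as independent. The HMGA2 count was 3.09 times the expected number in Sema3c (31 observed, 10.0 expected, interval of the ratio 2.10 to 4.39). It was 2.67 times in Sema3a (76 and 28.5, 2.10 to 3.34), 2.09 times in Sema3d (27 and 12.9, 1.38 to 3.04) and 1.95 times in Sema3e (28 and 14.4, 1.295 to 2.82). All 4 intervals lay above 1 and overlapped each other. The γ-H2AX ratio was 2.15 in Sema3a (50 and 23.3, 1.60 to 2.83) and 1.83 in Sema3c (15 and 8.19, 1.025 to 3.02). It was 1.36 in Sema3e (0.780 to 2.22) and 1.14 in Sema3d (0.588 to 1.99), where the intervals included 1. Each Sema3c count takes in the peak near its start for which the gene was picked. With that peak counted, the γ-H2AX interval of Sema3c began barely above 1, so it does not set Sema3c apart from Sema3d and Sema3e. ATM counts were nearer to the expected ones, at 1.55 in Sema3a (36 and 23.2, 1.09 to 2.15), 1.47 in Sema3c (0.759 to 2.57), 1.05 in Sema3d (0.522 to 1.87) and 0.855 in Sema3e (0.410 to 1.57).

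The place of the members among other long genes was read by rank. Of the 2429 protein-coding genes of 100 kb or more, 98.5% had a lower HMGA2 ratio than Sema3a and 99.5% a lower one than Sema3c, with 94.3% for Sema3d and 92.0% for Sema3e. The median HMGA2 ratio of these genes was 0.977. For γ-H2AX (median 1.11) the share of genes below was 93.0% for Sema3a, 85.3% for Sema3c, 65.5% for Sema3e and 51.7% for Sema3d. For ATM (median 1.01) it was 89.3% for Sema3a, 86.8% for Sema3c, 54.8% for Sema3d and 32.7% for Sema3e. At least 2 times the expected HMGA2 peaks were found in 3 of the 4 long members, against 7.2% of such genes. For γ-H2AX it was 1 of 4 against 9.92%, and for ATM 0 of 4 against 1.89%. The 4 genes share 1 stretch of a chromosome and are not independent of each other. The ratios of Sema3c include the peaks near its start for which it was picked.

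**Figure D3:**
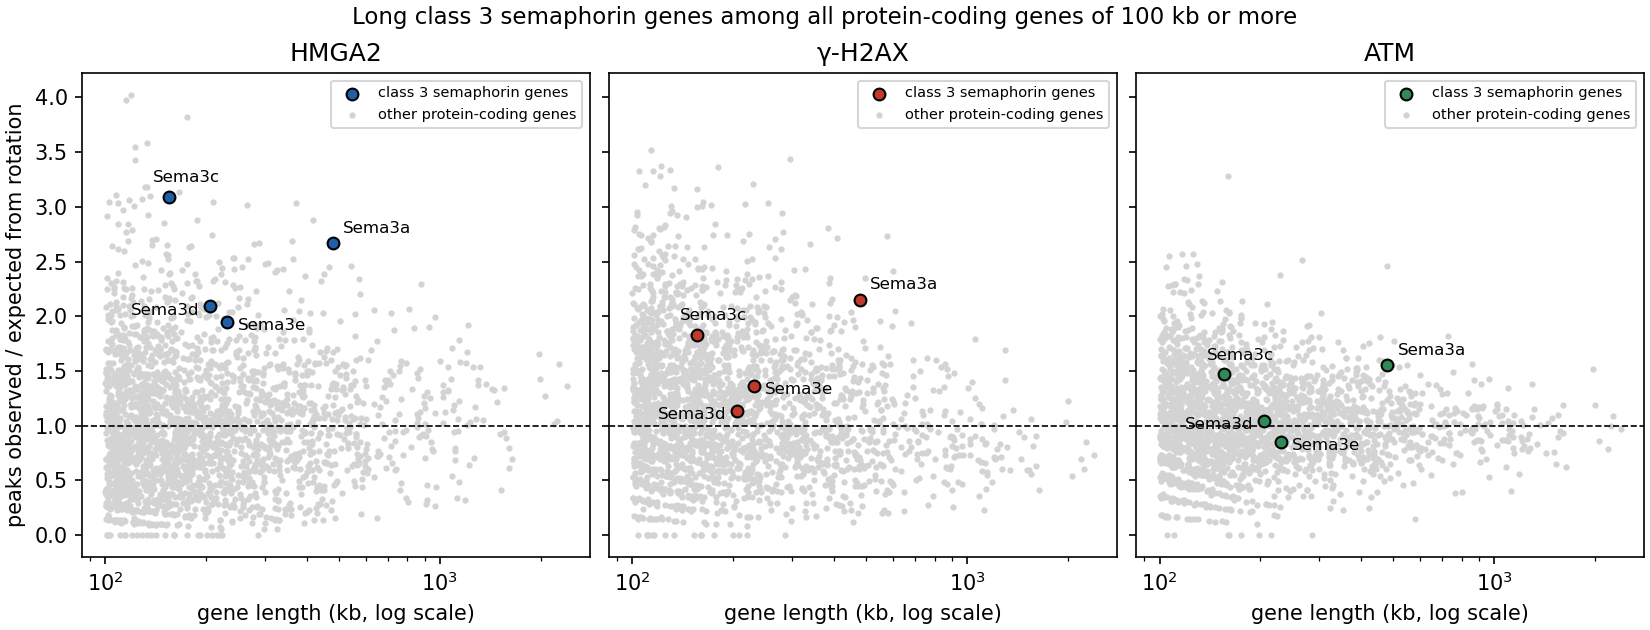
Peaks observed over peaks expected from rotation, against gene length in kb on a log scale, for class 3 semaphorin genes (large points) and other protein-coding genes (grey) of 100 kb or more, with the dashed line at 1. Sema3c (3.09) and Sema3a (2.67) stand in the upper margin for HMGA2, and all 4 members lie among the other genes for ATM (0.855 to 1.55).

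HMGA2 peaks were also dense in the surroundings of the genes. In the 1 Mb on either side, HMGA2 had 11.95 peaks per 100 kb around Sema3a, 11.9 around Sema3d, 10.9 around Sema3e and 10.4 around Sema3c. Against this local density the HMGA2 ratio was 1.70 in Sema3c (1.15 to 2.41) and 1.28 in Sema3a (1.004 to 1.60). It was 1.03 in Sema3e (0.682 to 1.48) and 1.01 in Sema3d (0.665 to 1.47), with intervals that included 1. The γ-H2AX ratio was then 1.57 in Sema3a (1.16 to 2.07) and 1.38 in Sema3c (0.771 to 2.27), with 1.01 in Sema3e (0.577 to 1.64) and 0.781 in Sema3d (0.404 to 1.36). The ATM ratio was 1.44 in Sema3a (1.01 to 1.998), 1.10 in Sema3c (0.570 to 1.93), 0.818 in Sema3d (0.408 to 1.46) and 0.621 in Sema3e (0.298 to 1.14). Sema3a thus held more peaks than its flanks for each antibody, although for HMGA2 and ATM only barely beyond the counting interval. The flanks of Sema3a, Sema3d and Sema3e hold parts of one another. The Sema3c counts again include the peaks near its start for which it was picked.

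**Figure D4:**
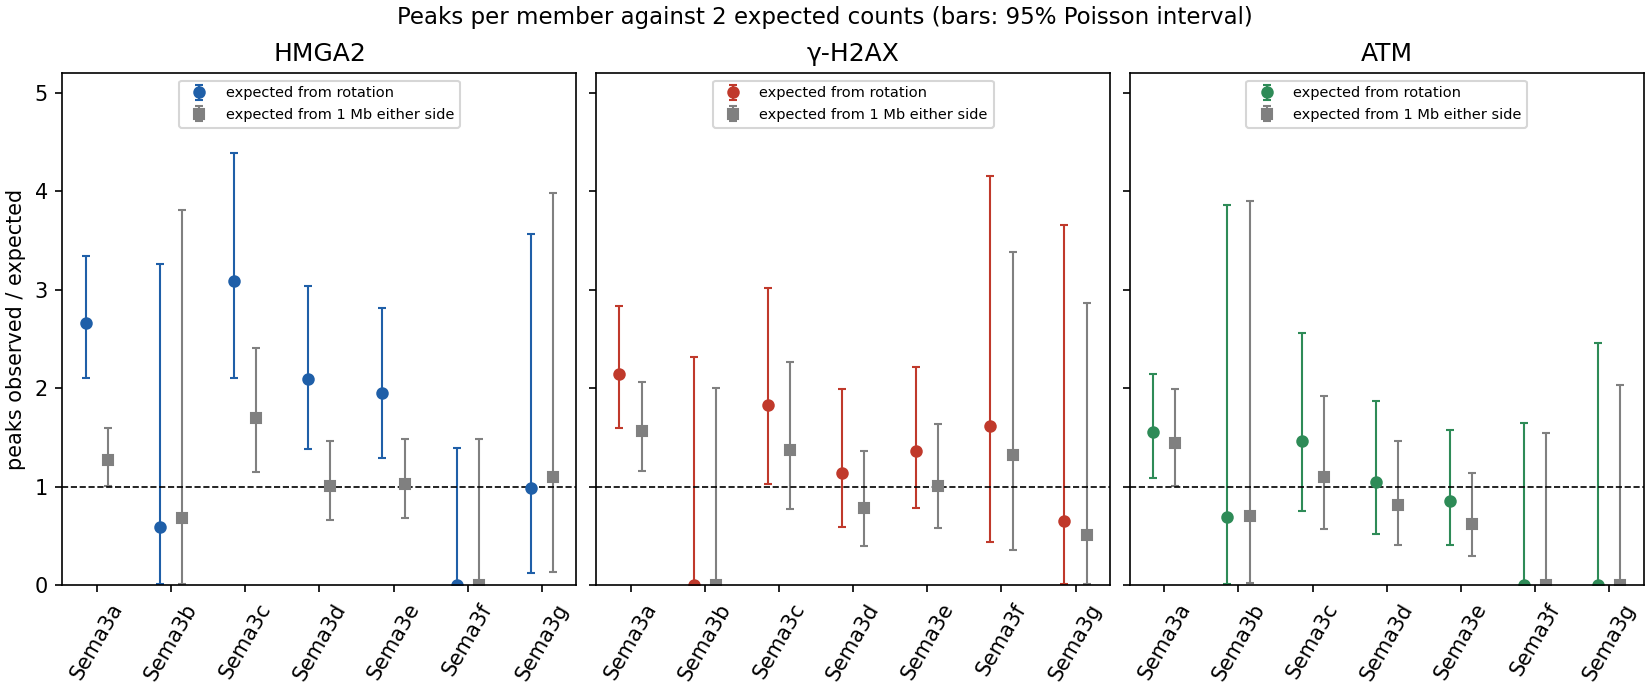
Peaks observed over expected for the 7 genes, in 1 panel per antibody, with exact 95% Poisson intervals; circles use the count expected from rotation within the chromosome and grey squares that from the density within 1 Mb. The HMGA2 circles of Sema3a, Sema3c, Sema3d and Sema3e lie between 1.95 and 3.09, and their squares between 1.01 and 1.70.

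The stretch of chromosome 5 from 6.5 Mb before to 2.0 Mb after the Sema3c start holds the 4 genes. Measured from the Sema3c start, Sema3d (chr5:12383161-12588953) begins at -5.192 Mb, Sema3a (chr5:13124822-13603485) at -4.45 Mb and Sema3e (chr5:14025276-14256689) at -3.55 Mb. Over its 85 bins of 100 kb, HMGA2 peaks averaged 10.4 per bin against 5.71 over the chromosome, and 73 bins lay above that chromosome mean. For γ-H2AX the average was 5.84 against 4.66, with 50 bins above, and for ATM 5.80 against 4.65, with 51 bins above. The fullest HMGA2 bin (23 peaks, centred at -4.15 Mb) and the fullest γ-H2AX bin (15 peaks, at -4.05 Mb) both lie in Sema3a. The fullest ATM bin (25 peaks, at -2.55 Mb) lies outside the semaphorin genes. It borders 3 bins without a peak of any list, from -2.5 to -2.2 Mb. The 1 Mb beside Sema3e takes in this ATM bin and part of the empty stretch.

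**Figure D5:**
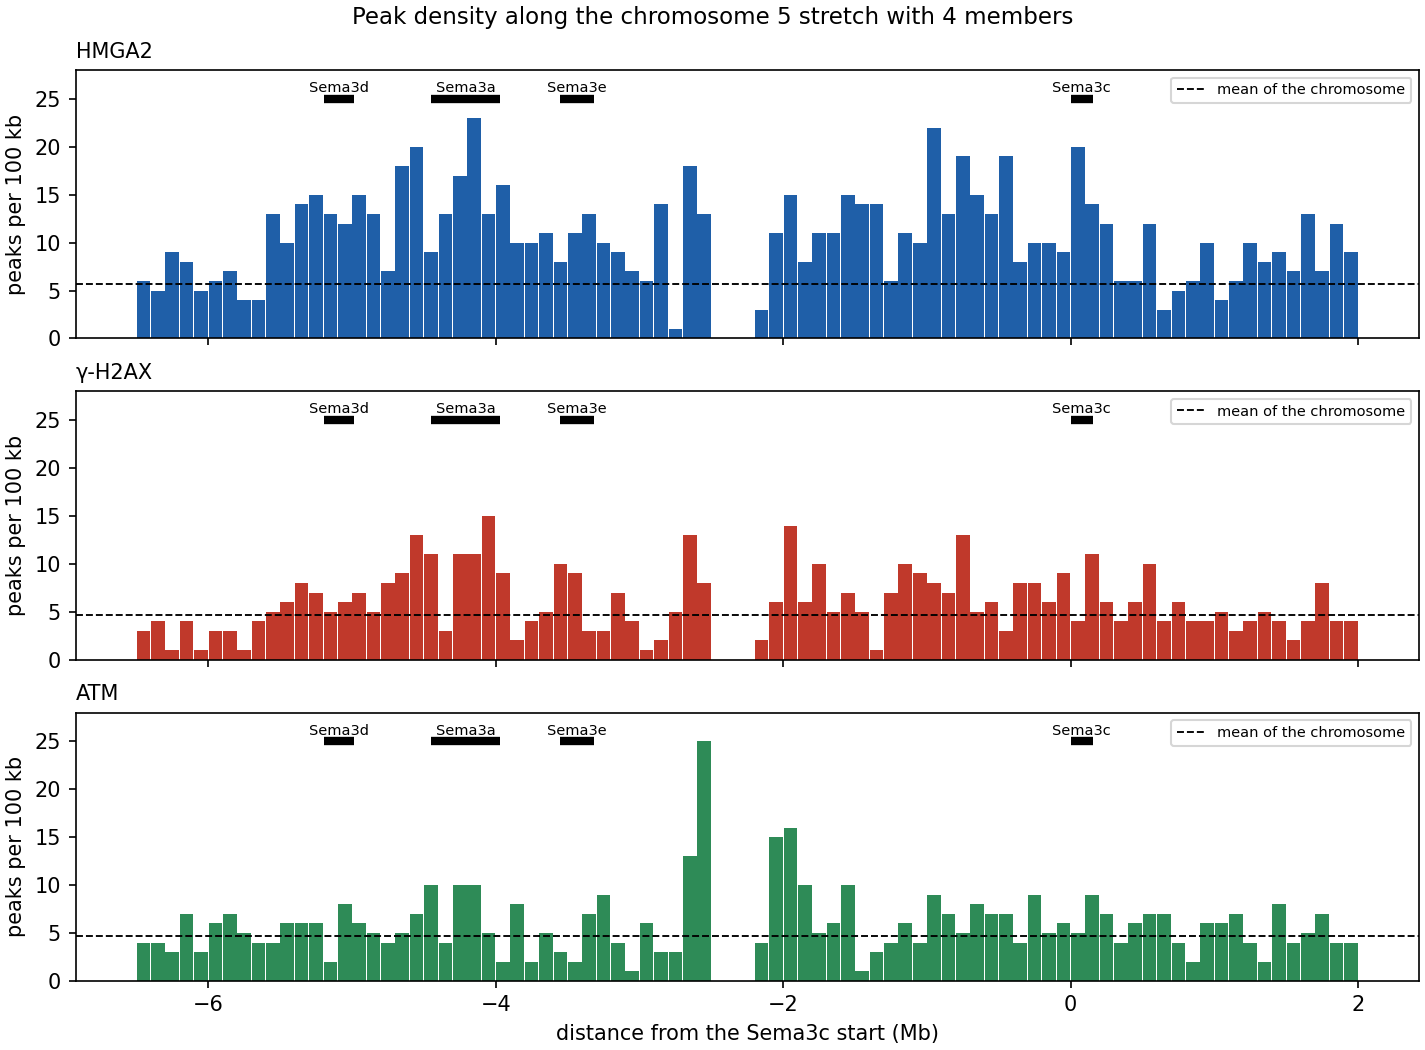
Peaks per 100 kb of HMGA2, γ-H2AX and ATM along chromosome 5, by distance from the Sema3c start in Mb; black bars mark the 4 genes and dashed lines the mean of the chromosome. HMGA2 bins stand above the dashed line in 73 of 85 bins, inside and outside the genes.

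Within Sema3a the antibodies were spread unevenly. HMGA2 had no peak in the first 47.5 kb from the low-coordinate end, where γ-H2AX had 5 and ATM 6. A gap of 99.7 kb without γ-H2AX, from 14.6 to 114 kb, held 10 HMGA2 and 8 ATM peaks. Of the HMGA2 peaks with their midpoint in the gene, 28 lay in its lower-coordinate part up to the middle and 46 beyond, with 17 and 31 for γ-H2AX but 21 and 15 for ATM. The shorter genes had long gaps too. The longest without HMGA2 were 12.8 kb in Sema3c, 28.2 kb in Sema3d and 22.6 kb in Sema3e. Without γ-H2AX they were 45.1 kb, 38.7 kb and 38.0 kb in the same order of genes, and without ATM 30.9 kb, 60.4 kb and 78.2 kb.

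The strongest HMGA2 peaks of the family lay in Sema3a. It held 7 HMGA2 peaks with a score of 40 or more, 9.21% of its 76, against 2.31% of the whole HMGA2 list, and no other member had an HMGA2 peak that high. The highest were at chr5:13378409-13378600 (score 51.9) and chr5:13543661-13543884 (50.8). The highest ATM peak of the family was also in Sema3a, at chr5:13150796-13151090 (52.9), and ATM reached 40.6 within Sema3c at chr5:17667147-17667273. Of the 3 ATM peaks of the family with a score of 40 or more, 2 were among the 12 of Sema3c and 1 among the 36 of Sema3a. These 3 were 4.29% of the 70 ATM peaks of the family, against 1.79% of the whole ATM list. In Sema3c, 1 of the 2 was the peak before the start (43.3), for which the gene was picked. None of the 98 γ-H2AX peaks of the family reached 40, where 1.865% of that list did, and in Sema3a 1 of 50 reached 30. With shares of a list this low, neither the absence of γ-H2AX peaks at 40 nor the 3 ATM peaks sets the family apart. The highest γ-H2AX scores were 36.8 in Sema3c (chr5:17721005-17721220), 35.7 in Sema3e (chr5:14038940-14039181), 35.5 in Sema3d (chr5:12562037-12562345) and 33.1 in Sema3a (chr5:13527278-13527429). The highest HMGA2 scores of the other long members were 38.4 in Sema3c (chr5:17599319-17599675), 37.6 in Sema3d (chr5:12506318-12506579) and 36.5 in Sema3e (chr5:14063427-14063527), and their ATM peaks reached 28.9 in Sema3d (chr5:12403573-12403790) and 29.1 in Sema3e (chr5:14067676-14067798). Over all 7 genes, 23 of 165 HMGA2 peaks (13.9%) scored 30 or more against 11.6% of that list, with 7 of 98 (7.14%) against 10.3% for γ-H2AX and 8 of 70 (11.4%) against 10.2% for ATM.

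Peaks of different antibodies seldom met in these genes. HMGA2 and γ-H2AX overlapped 7 times, where rotation expected 2.72 and the density within each locus 4.75. HMGA2 and ATM overlapped 2 times, where 2.70 and 3.54 were expected on the same bases, and γ-H2AX and ATM 5 times, where 1.55 and 1.98 were expected. The pair before the Sema3c start, for which the family was chosen, is 1 of these 5. The counting intervals of 2.81 to 14.4, 0.242 to 7.23 and 1.62 to 11.7 each included the number expected from the locus density. The number expected from rotation lay just below the interval for HMGA2 with γ-H2AX and for γ-H2AX with ATM. It lay inside the interval for HMGA2 with ATM. The γ-H2AX with ATM interval counts the pair for which the family was chosen, so it shows no excess in the family. An ATM peak in Sema3a (chr5:13139146-13139310) and a γ-H2AX peak in Sema3e (chr5:14217614-14217788) each entered more than 1 pair. The pairs are therefore not independent counts. No HMGA2 peak touched both others. The fullest overlap of HMGA2 was in Sema3e, where the γ-H2AX peak at chr5:14173008-14173181 (score 20.2) lay wholly inside the HMGA2 peak at chr5:14173005-14173188 (23.8). A second HMGA2 pair in Sema3e was with ATM, over 135 bp at chr5:14047757-14047912 (22.2). In Sema3a the widest overlap of HMGA2 was that of the peak at chr5:13368102-13368247 (30.5) with a γ-H2AX peak (25.3), over 97 bp. Sema3d had a pair of HMGA2 (24.2) and its highest γ-H2AX peak (35.5), over 118 bp. The ATM and γ-H2AX pair before the start of Sema3c had the highest score of both partners among the overlaps of these 2 antibodies.

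The short genes carried few peaks. Sema3f encodes a repellent that signals through neuropilin-2, Sema3b is its neighbour on chromosome 9 and encodes a ligand of neuropilins, and Sema3g is known as a semaphorin of endothelial cells. Together with their flanks they span 113 kb, which held 3 HMGA2 peaks (6.37 expected, counting interval 0.619 to 8.77), 5 γ-H2AX peaks (5.58 expected, 1.62 to 11.7) and 1 ATM peak (5.18 expected, 0.0253 to 5.57). From the density within 1 Mb, 5.62 ATM peaks were expected, just outside that interval (ratio 0.178, upper bound 0.991). Sema3f (chr9:107681499-107710475) had 4 γ-H2AX peaks, the highest inside the gene at chr9:107698193-107698390 (score 32.2), and none of HMGA2 or ATM, where 2.64 and 2.24 were expected. Sema3b (chr9:107597674-107609241) had 1 ATM peak inside the gene (20.4) and 1 HMGA2 peak 9136 bp outside it (20.5), with no γ-H2AX peak. Sema3g (chr14:31217873-31230352) had 2 HMGA2 peaks in a flank (32.2 and 24.1), both nearer to an end of Phf7 than to its own, and 1 γ-H2AX peak (20.5). A peak in the body or flanks was found for HMGA2 in 2 of the 3, against 71.6% of protein-coding genes under 100 kb. It was 2 of 3 against 76.7% for γ-H2AX and 1 of 3 against 74.9% for ATM. With so few expected peaks, the absence of an antibody from a single short gene is within the counting error.

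Over all 7 genes and their 1264 kb, 165 HMGA2 peaks stood against 72.2 expected (ratio 2.29, 1.95 to 2.66), 98 γ-H2AX peaks against 59.3 (1.65, 1.34 to 2.01) and 70 ATM peaks against 58.8 (1.19, 0.929 to 1.51). Against the density within 1 Mb the ratios were 1.20 (1.02 to 1.396), 1.21 (0.984 to 1.48) and 0.986 (0.769 to 1.25). Single genes weighed unequally in these sums, since Sema3a alone gave 76 of the 165, 50 of the 98 and 36 of the 70.

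Receptors and partners of the pathway were read in the same way. Of the 7 receptors of class 3 semaphorins (Nrp1, Nrp2, Plxna1, Plxna2, Plxna3, Plxna4 and Plxnd1), HMGA2 lay within 1 kb of an end of 2 (Nrp1 and Plxna4), γ-H2AX of 1 and ATM of 0. The shares over all protein-coding genes were 17.9%, 23.3% and 16.1%, and 7 genes are too few for these counts to set the receptors apart. Nrp1, the neuropilin that binds Sema3a, had a γ-H2AX peak at its start (score 24.5), with a region of the γ-H2AX promoter list there, and an HMGA2 peak at its other end (23.8). Nrp1 also had 1.81 times the expected HMGA2 peaks and 1.95 times the expected γ-H2AX peaks. Plxna4, a plexin A co-receptor, is nearly as long as Sema3a, at 444 kb, and had 9 HMGA2 peaks, 0.331 times the expected number. The median HMGA2 ratio of the 7 receptors was 0.331, against 0.701 over all protein-coding genes, and their median γ-H2AX ratio was 1.65 against 0.936. That γ-H2AX median is the value of Plxna3, from 2 peaks, and the receptors ranged from 0.312 in Plxna1 to 2.39 in Nrp2. With 7 genes, neither median sets the receptors apart.

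None of the 4 other plexins had a peak at an end. Among the 13 semaphorins of other classes, HMGA2 lay at an end of 2, γ-H2AX of 2 and ATM of 1, and their median HMGA2 ratio was 0.416. Sema5a, a membrane-bound semaphorin of 452 kb, had HMGA2 (23.2) and γ-H2AX (24.0) at opposite ends, with 33 HMGA2 and 48 γ-H2AX peaks or 1.12 and 2.04 times the expected numbers. Of 13 co-receptors and signal mediators, 4 had HMGA2, 2 γ-H2AX and 3 ATM at an end. Chl1, an adhesion molecule of axons, had HMGA2 (22.6) and ATM (22.1) at the same end, and Gsk3b, a kinase that acts downstream of semaphorins, had HMGA2 (24.6) and γ-H2AX (20.4) at the same end. Over the 37 genes of these lists HMGA2, γ-H2AX and ATM lay at the ends of 8 (21.6%), 5 (13.5%) and 4 (10.8%), beside the shares of 17.9%, 23.3% and 16.1% over all protein-coding genes given above, and at no gene did all 3 meet.

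The likeness of other genes to Sema3c was measured as peaks of all 3 antibodies within 1 kb of the same end with regions of both promoter lists there. Besides Sema3c, 13 protein-coding genes met this. By their lowest score in the 3 libraries, the first were Naa15, a subunit of an N-terminal acetyltransferase (24.6), A530032D15Rik (24.5), Iws1, a factor of transcription elongation (23.5), Atp6v0e, a subunit of the vacuolar proton pump (22.8), and Cse1l, an exporter of importin alpha (22.6). The lowest score of Sema3c, that of HMGA2, was 26.5 and the highest of the 14. Since Sema3c was picked for these same peaks, its place in the order is a description only. This order rests on scores of single libraries near the threshold.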

How the data were processed

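Peaks of 3 wild-type MEF libraries (HMGA2, γ-H2AX, ATM) were used. MACS14 made the authors' lists, per the labels, without its shifting model, at p 0.01 and a shift size of 30 bp. The deposited score grows with the negative log10 of a peak's p, and its lowest value of 20 is that p on the scale of MACS14. The submitters' processing notes name Trimmomatic, Bowtie2, SAMtools, MACS and HOMER without versions, and mm10. The control library is not given in the sources used here. The authors' 2 promoter lists (unit other, start and end only) were deposited without saying how promoters were chosen. Where a region matched a peak, its start was 1 above the deposited peak start, as 1-based positions are. All 2220 γ-H2AX regions matched a peak of their list exactly, and 788 distinct regions did among the 866 of ATM. All positions are given 1-based. A deposited profile over all HMGA2 peaks and 2 plotting configurations were not used. Tag depth was not given as a number, so no precision of a single peak can be stated.

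Genes and promoter sequences came from RefSeq (GRCm38), without exons, introns or UTRs. A peak counted when 1 bp of it touched the window, and bedtools 2.31.1 gave the same counts. Expected numbers are exact means over all rotations of a list between the first and last peak of its chromosome, and no random draw or p was used; the formula was tested on simulated data. Intervals are exact 95% Poisson intervals. Named genes are the 7 members, pathway genes with peaks of 2 or 3 antibodies at ends (with Plxna4 added for its length after values were seen), and 5 genes like Sema3c. The members and lists were chosen with earlier results of these data known. Alternatives were other windows, score thresholds, midpoints, overlaps and the local density.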

Additional observations from a re-analysis of the deposited data

How the results depend on the processing

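The HMGA2 ratio of the 4 long genes was above 1 in 23 of 24 gene and setting combinations (0.663 to 5.12). Over the 7 genes, peaks scoring 30 or more gave 2.74 for HMGA2 and 1.17 for γ-H2AX, and the density within 1 Mb gave 1.2 for HMGA2 and 1.21 for γ-H2AX, where the main ratios were 2.29 and 1.65. With peaks scoring 30 or more, 4 ratios above 1 dropped below it: γ-H2AX in Sema3a (0.43) and in Sema3e (0.852) and HMGA2 in Sema3d (0.663), each from 1 peak, and ATM in Sema3d (0, from no peak). That of HMGA2 in Sema3g went above 1 (4.45, from 1 peak). Fewer peaks enter at that threshold. Of the 21 ratios of a gene and an antibody, 21 stayed within their counting interval with 50 kb flanks, 21 with midpoints, 18 with 1 kb flanks, 17 at a score of 25, 16 with the local density and 9 at a score of 30.

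Peaks at gene ends depended on the window. Within 500 bp, 0 members had HMGA2, 1 γ-H2AX and 1 ATM, and 0 antibodies remained at the Sema3c start. Within 5 kb it was 3, 5 and 4 members. A wider window takes in more peaks at any gene. The share of all protein-coding genes was taken only within 1 kb and at all scores. Counts at other settings therefore have no share beside them. At a score of 25, γ-H2AX and ATM each lay at 1 member, and at a score of 30 HMGA2 lay at 0 and both others at 1. The call of all 3 antibodies at Sema3c therefore needs a window wider than 500 bp. When 50% of the shorter peak had to overlap, HMGA2 met γ-H2AX 4 times and ATM 1 time, and γ-H2AX met ATM 2 times; a gap of up to 500 bp gave 24, 15 and 10.

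No paired analysis was possible because each antibody has 1 wild-type library; for the same reason no library was left out in turn. Few peaks were expected in a short gene, which limits what can be seen there.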
